A study of Mus musculus with 12 samples.

Results

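The nuclear genes of respiratory chain complex III were followed through RNA of mouse hearts with and without Ptcd1. Complex III is the ubiquinol-cytochrome c oxidoreductase, and its mouse subunit genes in the nucleus were taken by symbol: Uqcrc1, Uqcrc2, Uqcrfs1 and Cyc1 as the core subunits, and Uqcrb, Uqcrq, Uqcrh, Uqcr10 and Uqcr11 as the small ones. All 9 genes, of 51911 features in the deposited count tables, were found and were kept by the filter on low counts in all 5 comparisons. Total heart RNA was sequenced in 12 libraries, 3 each of Ptcd1 knockout (KO) RNA after CMC, wild-type (WT) RNA after CMC, untreated KO RNA and untreated WT RNA. CMC is a water-soluble carbodiimide that forms adducts on pseudouridine and can stop reverse transcription there, and per the labels' protocols it was applied to RNA already isolated from the hearts, so that CMC and untreated libraries differ by a step on RNA and not by a treatment of mice. Cytoplasmic ribosomal RNA was depleted by the authors with Ribo-Zero. PTCD1 is a mitochondrial protein with pentatricopeptide repeats that acts on mitochondrial RNA, and the study asked what its loss does to RNA levels. The labels do not state strain, sex, age, the driver of any Cre or whether replicates are separate animals, so p-values measure the spread between these libraries, which may be technical.

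Complex III takes electrons from ubiquinol, passes them to cytochrome c and pumps protons across the inner mitochondrial membrane by the Q cycle. It works as a dimer and joins complexes I and IV in supercomplexes, and heart muscle, which lives on oxidative metabolism, holds much of it. One subunit, cytochrome b, is made in mitochondria from mt-Cytb, while all others are made in the cytosol and imported. Of the nuclear subunits, cytochrome c1 (Cyc1) and the Rieske iron-sulfur protein (Uqcrfs1) carry electrons, the core proteins (Uqcrc1 and Uqcrc2) face the matrix and descend from the mitochondrial processing peptidase, and the small subunits carry no redox centre.

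Libraries held 10389398 to 12462093 counts, of which 70.5% to 75.4% were mitochondrial, so nuclear genes rested on 2683284 to 3187748 counts per library. Ptcd1 itself had 23, 21 and 20 counts in the KO CMC libraries against 79, 103 and 74 in the WT CMC libraries, and 28, 17 and 19 counts in the untreated KO libraries against 78, 71 and 74 in the untreated WT libraries. The genotype labels therefore held in all 12 libraries, with a log2 fold change of -1.94 ± 0.19 (SE) in untreated libraries. Ptcd1 counts do not check which libraries received CMC. Among replicates, WT CMC replicate 3 stood apart: its counts differed from those of WT CMC replicates 1 and 2 by a chi-square per degree of freedom of 2.08 and 2.43, against 1.39 between these 2 and 1.12 to 1.36 in the other groups. Its mitochondrial share, 72.4%, lay within the 72.0% to 72.8% of untreated WT libraries, against 70.8% and 70.5% in WT CMC replicates 1 and 2. Gm5457, a copy of Uqcrb described below, had 8 counts in it, 5 and 13 in those 2, and 29 to 44 in untreated WT libraries. Whether CMC acted less in replicate 3 was not tested. The members' results that rest on WT CMC libraries are therefore also given without replicate 3. All sample titles share 1 code that the labels do not explain, and no batch is named in them.

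Upstream sequences were read for the members whose genes had an entry in the RefSeq promoter table, on build GRCm38.p6. They were Uqcrc1, Uqcrfs1, Uqcrh, Uqcr10 and Uqcr11, 5 of 9, and Uqcrc2, Cyc1, Uqcrb and Uqcrq had none. The 3 small subunit genes below are shown because they span the response to the knockout: Uqcr11 with the lowest fold change of the well-counted members, Uqcrh between, and Uqcr10, which was not called in untreated libraries. Each is the 250 bases before the annotated start, 5′ to 3′ on the gene's strand, with any match to the ETS motif in capitals, of which Uqcr10 has none. All 3 genes lie on the minus strand, Uqcr11 at chr10:80406822-80407071, Uqcrh at chr4:116075071-116075320 and Uqcr10 at chr11:4704345-4704594.
Uqcr11: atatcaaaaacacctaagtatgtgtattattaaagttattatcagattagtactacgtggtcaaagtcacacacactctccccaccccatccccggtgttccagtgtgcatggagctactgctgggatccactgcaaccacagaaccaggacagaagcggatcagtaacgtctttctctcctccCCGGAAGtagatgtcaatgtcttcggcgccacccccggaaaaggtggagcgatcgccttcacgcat
Uqcrh: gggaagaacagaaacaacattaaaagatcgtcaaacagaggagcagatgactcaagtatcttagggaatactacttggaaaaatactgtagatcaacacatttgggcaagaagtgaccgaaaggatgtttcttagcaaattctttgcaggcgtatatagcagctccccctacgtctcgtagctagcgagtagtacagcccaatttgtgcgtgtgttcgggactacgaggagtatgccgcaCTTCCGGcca
Uqcr10: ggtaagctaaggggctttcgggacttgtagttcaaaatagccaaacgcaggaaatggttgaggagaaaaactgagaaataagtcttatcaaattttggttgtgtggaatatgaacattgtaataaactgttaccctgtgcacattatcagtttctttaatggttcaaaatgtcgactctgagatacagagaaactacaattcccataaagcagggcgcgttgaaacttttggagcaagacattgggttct
The motif letters searched, on both strands, were CCGGAAG for the ETS family to which GABPA (NRF-2) belongs, GCGCANGCG for NRF1, TNAAGGTCA for the oestrogen-related receptor alpha and AAGATGGC for YY1. CCGGAAG was found in 2 of the 5 windows, with its first base 10 bases before the start of Uqcrh, on the opposite strand, and 66 bases before the start of Uqcr11, and 7.83% of 27025 genes in the table had it in the same window. The other 3 motifs were in none of the 5 windows, and no matches overlapped, against 5.86% of all genes for NRF1, 1.3% for the receptor and 1.83% for YY1. The windows not shown, of Uqcrc1 and Uqcrfs1, had no match to CCGGAAG, and both genes were called lower in untreated KO hearts, at -0.49 and -0.54. A match is a description of letters, and no binding was measured.

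Levels are given below on either of 2 scales. The first is counts per 1000000 nuclear counts after TMM scaling over nuclear genes (nuclear CPM), which compares libraries, and the second is nuclear transcripts per 1000000 (TPM), the count per exon base as a share of all nuclear genes, which compares genes within a library. In untreated KO hearts the per-length level of Uqcrb was 1979 ± 44.7 TPM (SD, n = 3), the highest of the 9. The levels of Uqcrh, Uqcrc2, Uqcr10 and Uqcr11 came next and lay within their spread of each other, at 864 ± 32.7, 862 ± 11.3, 858 ± 8.48 and 845 ± 21.1 TPM. Uqcrfs1 had 542 ± 22.8 TPM, Uqcrc1 434 ± 15.8 TPM, Cyc1 302 ± 22.0 TPM and Uqcrq 14.8 ± 1.84 TPM in these hearts. Uqcrq was thus far below the others, with 507 counts over all 12 libraries, against 4736 for Cyc1, the next lowest. These levels depend on the exon length in the files, which for Uqcrc1 was 4135 bases although its longest coding transcript in GENCODE M21 has 1653. For Uqcrh these lengths were 1237 and 547 bases, for Uqcrc2 2552 and 1896, for Uqcr10 584 and 434, and for Uqcr11 641 and 445. For Uqcrq they were 1831 and 1521 bases, and its shortest coding transcript has 405. No near-identical copy of Uqcrq was found among GENCODE transcripts, and whether its reads were lost in mapping or counting was not tested. The order of the genes, and the closeness of Uqcrh to Uqcrc2, Uqcr10 and Uqcr11, thus depend on the length used.

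In untreated WT hearts that order was different, with no such cluster. Uqcrb was again the highest at 2735 ± 102 TPM (SD, n = 3) and ranked at 25 among 15097 detected protein-coding genes. Uqcr11 followed at 1567 ± 34.6 TPM, well above Uqcr10, then Uqcrh at 1287 ± 36.7 TPM and Uqcrc2 at 1073 ± 30.1 TPM. Uqcr10 at 863 ± 23.5 TPM, Uqcrfs1 at 736 ± 25.2 TPM, Uqcrc1 at 568 ± 12.7 TPM and Cyc1 at 365 ± 11.5 TPM made up the lower part of the order. Uqcrq was the lowest at 31.6 ± 1.90 TPM, at rank 3212, and each gene differed from its neighbour in this order by more than their SDs together.

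After CMC, Uqcrb had 2218 ± 102 TPM in KO libraries and 2394 ± 396 in WT libraries, Uqcrh 1016 ± 6.53 and 1320 ± 122, Uqcr10 918 ± 17.0 and 1017 ± 73.4, and Uqcrc2 889 ± 29.6 and 990 ± 86.4 (SD, n = 3 each). Uqcr11 had 767 ± 32.5 TPM in KO CMC libraries and 1600 ± 120 in WT CMC libraries, below Uqcr10 in KO and above it in WT. Uqcrc1 had 496 ± 4.93 and 678 ± 27.7 TPM, Uqcrfs1 472 ± 31.7 and 819 ± 77.6, and Cyc1 299 ± 16.9 and 433 ± 32.4 TPM in KO CMC and WT CMC libraries, and Uqcrq was again the lowest, at 35.8 ± 2.40 TPM in WT CMC libraries. The SD of Uqcrb in WT CMC libraries was the widest of the 9 in any group.

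**Figure D1:**
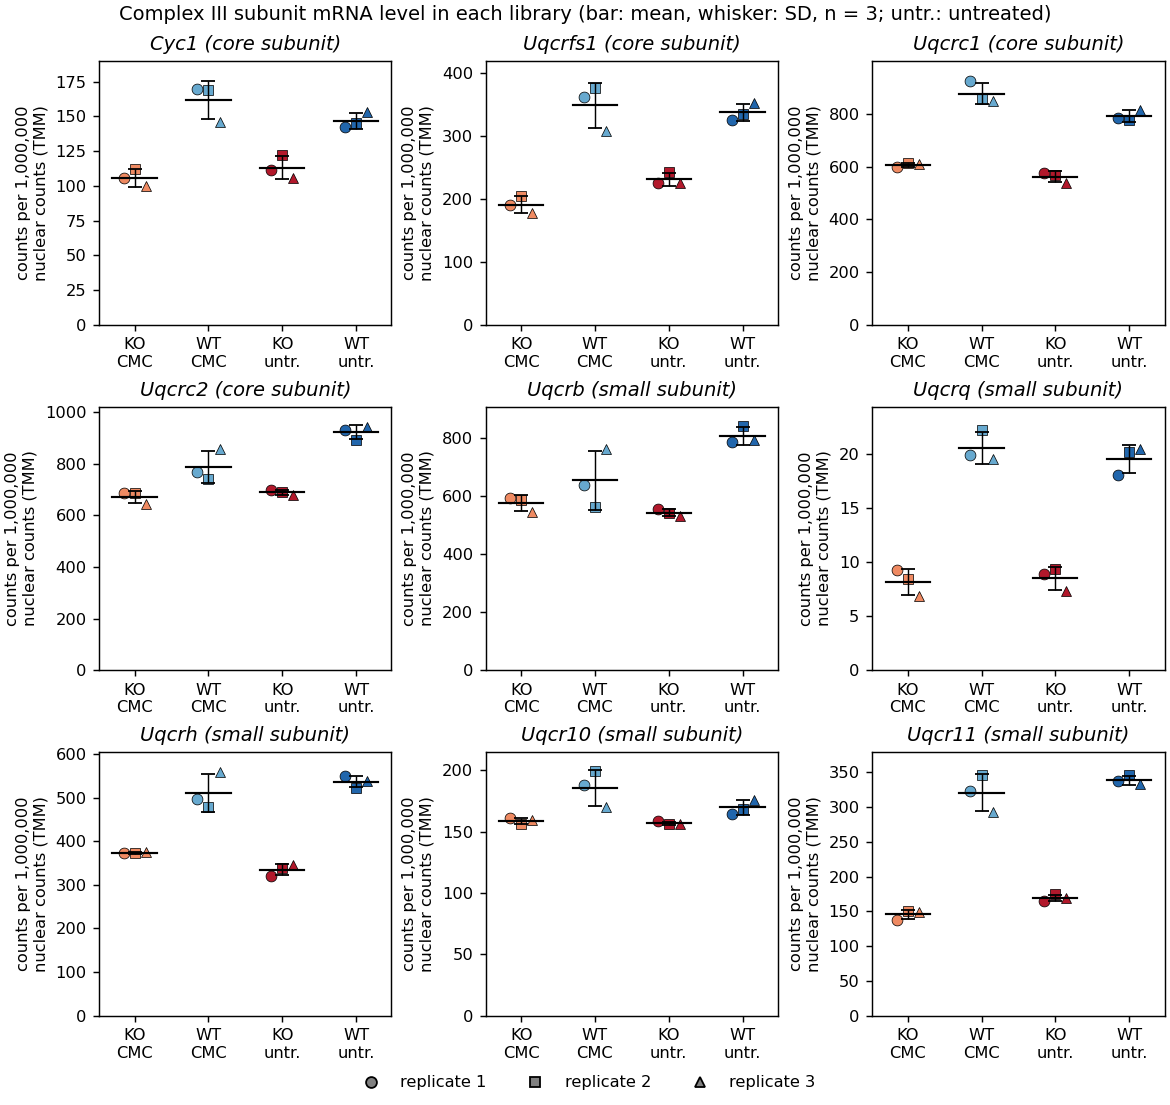
Level of each complex III subunit mRNA in each library, in counts per 1000000 nuclear counts (vertical axis, from 0), for KO CMC, WT CMC, untreated KO and untreated WT libraries; symbols are replicates, bars the mean and whiskers the SD of 3 libraries. Between untreated KO and untreated WT libraries the fold is smallest for Uqcr10 and, leaving out the thinly counted Uqcrq, largest for Uqcr11.

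Fewer mRNAs of 8 of the 9 members were counted in untreated KO hearts than in untreated WT hearts. The 8 members fell at an adjusted p under 0.05 (edgeR quasi-likelihood test, Benjamini-Hochberg over 12211 features), and none rose, where 28.7% of all features tested were called lower, 29.2% higher and 57.9% in either direction. The median log2 fold change of the 9 was -0.54, against -0.00 over all nuclear features tested. The 4 core genes were all lower, with a median of -0.46 and a range of -0.54 to -0.37, and 4 of the 5 small genes were lower, with a median of -0.68 and a range of -1.19 to -0.11. The members and their groups were chosen with these results known, so the counts describe them and carry no p of their own. Whether the groups of a gene overlapped is given below as description, since the share of all features without overlap was not counted. The small genes thus spread more widely than the core genes, and both the lowest and the highest fold changes belonged to small subunits.

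Markers of heart muscle moved with the subunits. The summed level of 8 cardiomyocyte markers was 39480 to 39690 nuclear CPM in untreated KO hearts and 84140 to 86930 in untreated WT hearts, and 42860 to 44090 in KO CMC libraries and 81060 to 89530 in WT CMC libraries. All 8 were called lower in both, with median log2 fold changes of -1.04 and -0.97, and none was at 0 counts. The 5 fibroblast markers summed to 1879 to 1902 nuclear CPM in untreated KO hearts and 1868 to 1965 in untreated WT hearts, the 5 endothelial ones to 966 to 1007 and 1029 to 1091, the 5 macrophage ones to 279.9 to 292.1 and 244.3 to 250.4, and the 4 of smooth muscle and pericytes to 1182 to 1202 and 1438 to 1508. In CMC libraries the fibroblast sums were 1769 to 1820 in KO and 1759 to 1834 in WT, the endothelial ones 1026 to 1114 and 1062 to 1113, the macrophage ones 277.7 to 290.8 and 238.6 to 257.8, and those of smooth muscle and pericytes 1247 to 1279 and 1400 to 1490. Within these lists the genes did not move one way. In both kinds of library 3 fibroblast markers were called higher (Col1a1, Col1a2 and Col3a1) and 2 lower (Dcn and Pdgfra). Of the 5 endothelial markers 3 were lower in both, and 1 was higher in untreated and 2 in CMC libraries. In both kinds of library 2 of 5 macrophage markers were higher (C1qa and Cd68) and 2 of 4 smooth muscle and pericyte markers were lower, and the others of these 2 lists were not called. The 3 liver markers reached at most 0.717 nuclear CPM in any library. In bulk RNA, fewer cells of a type and less RNA per cell cannot be told apart, and the part of the cardiomyocyte share in the lower subunit levels was not tested.

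On mm10, as in the files, Cyc1 lies at chr15:76343523-76345934 (+), Uqcrfs1 at chr13:30540308-30545362 (-), Uqcrc1 at chr9:108936633-108949623 (+), Uqcrc2 at chr7:120635176-120659524 (+), Uqcrb at chr13:66900617-66905378 (-), Uqcrq at chr11:53427922-53430831 (-), Uqcrh at chr4:116066965-116075071 (-), Uqcr10 at chr11:4701973-4704342 (-) and Uqcr11 at chr10:80402997-80406830 (-). Counts cover all exons of each gene. Cyc1 encodes cytochrome c1, whose haem hands electrons to cytochrome c. It had 111, 122 and 106 nuclear CPM in untreated KO hearts, against 142, 145 and 153 nuclear CPM in untreated WT hearts. The groups did not overlap, and Cyc1 fell by 0.37 on the log2 scale (SE 0.06, adjusted p = 7.93e-08, edgeR), the smallest of the called decreases. Uqcrfs1, the Rieske protein whose mobile head moves electrons between cytochromes b and c1, had 226, 243 and 225 nuclear CPM in untreated KO hearts, against 325, 336 and 353 nuclear CPM in untreated WT hearts. Its log2 fold change was -0.54 ± 0.05 (SE, adjusted p = 5.41e-24, edgeR), with no overlap between groups.

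Uqcrc1 and Uqcrc2 encode the pair of core proteins on the matrix side. Uqcrc1 had 577, 569 and 538 nuclear CPM in untreated KO hearts, against 785, 775 and 816 nuclear CPM in untreated WT hearts. Uqcrc2 had 698, 690 and 680 nuclear CPM in untreated KO hearts, against 932, 893 and 944 nuclear CPM in untreated WT hearts. All KO libraries were below all WT libraries for both genes, with log2 fold changes of -0.49 ± 0.04 and -0.42 ± 0.03 (SE, adjusted p = 2.98e-31 and 3.3e-26, edgeR). Per length, Uqcrc2 over Uqcrc1 was 1.99 ± 0.0494 in untreated KO hearts and 1.89 ± 0.0301 in untreated WT hearts (SD, n = 3 each). All KO ratios lay above all WT ratios, by a small amount. Uqcrc2 shares 721 exon bases with Pdzd9 on the opposite strand, but Pdzd9 had only 2 counts in all libraries.

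Uqcrb encodes a small matrix-side subunit, the counterpart of yeast Qcr7, which binds near cytochrome b. It had 556, 540 and 532 nuclear CPM in untreated KO hearts, against 787, 842 and 793 nuclear CPM in untreated WT hearts, and its log2 fold change was -0.57 ± 0.04 (SE, adjusted p = 1.95e-38, edgeR). Uqcrb has near-identical processed pseudogenes, so its counts are uncertain. Gm2962, Gm16089 and Gm5457 match it over up to 336 bases and took 2105 counts in all libraries, 9.12% of those of Uqcrb. That share does not measure how many reads of Uqcrb were lost or assigned to the wrong gene. The most counted of them, Gm2962, was also lower in untreated KO hearts, at -0.33 ± 0.10 (adjusted p = 0.00346, edgeR). In CMC libraries Gm2962 was at -0.68 ± 0.12 (SE, adjusted p = 1.13e-05, edgeR), while Uqcrb was at -0.19. Gm5457 had 14 counts in KO CMC and 26 in WT CMC libraries, against 74 and 115 in untreated ones. Gm16089 went the other way, at 78 and 85 against 47 and 59. The part of these copies in the values of Uqcrb was not tested.

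Uqcrh encodes the acidic hinge protein, which sits beside cytochrome c1 and helps it take up cytochrome c. It had 321, 338 and 346 nuclear CPM in untreated KO hearts, against 549, 522 and 538 nuclear CPM in untreated WT hearts. All KO values were below all WT values, with a log2 fold change of -0.68 ± 0.04 (SE, adjusted p = 5.11e-41, edgeR). Uqcrq, the counterpart of yeast Qcr8, also a neighbour of cytochrome b, had only 29, 29 and 23 counts in untreated KO hearts against 52, 57 and 59 counts in untreated WT hearts. Its log2 fold change was -1.19 with a 95% interval from -1.57 to -0.81 (adjusted p = 1.53e-08, edgeR). The groups of Uqcrq did not overlap, and its interval was the widest and its counts the lowest of the 9.

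Uqcr10 and Uqcr11 encode single-span membrane subunits at the edge of the complex, the counterparts of yeast Qcr9 and Qcr10, and their mRNAs went apart. Uqcr11 had 165, 174 and 169 nuclear CPM in untreated KO hearts, against 337, 346 and 333 nuclear CPM in untreated WT hearts. Its processed pseudogenes Gm16418 and Gm11628 had 83 counts in all libraries, 0.95% of those of Uqcr11. Uqcr11 was at 0.502 times its WT level, a log2 fold change of -0.99 ± 0.05 (SE, adjusted p = 9.11e-53, edgeR). Uqcr10 had 159, 156 and 156 nuclear CPM in untreated KO hearts, against 164, 169 and 176 nuclear CPM in untreated WT hearts. Uqcr10 was not called, with a log2 fold change of -0.11, a 95% interval from -0.22 to 0.00 and an adjusted p of 0.0959 (edgeR), although the groups did not overlap. With nuclear library size alone as the scale its value was 0.01, while the median of all nuclear features moved to 0.12 by that scale, so Uqcr10 lay below the median gene on both scales. Uqcr10 also shares 191 bases at 95.8% identity with 4930481A15Rik, a gene of the annotated type antisense that does not overlap Uqcr10 in position. That gene had 357 counts in all libraries, 5.91% of those of Uqcr10. Reads of the shared stretch may have gone to either gene. The log2 fold change of 4930481A15Rik was -0.95 in untreated libraries (adjusted p = 0.000196, edgeR) and -1.01 in CMC libraries (adjusted p = 0.000537, edgeR).

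**Figure D2:**
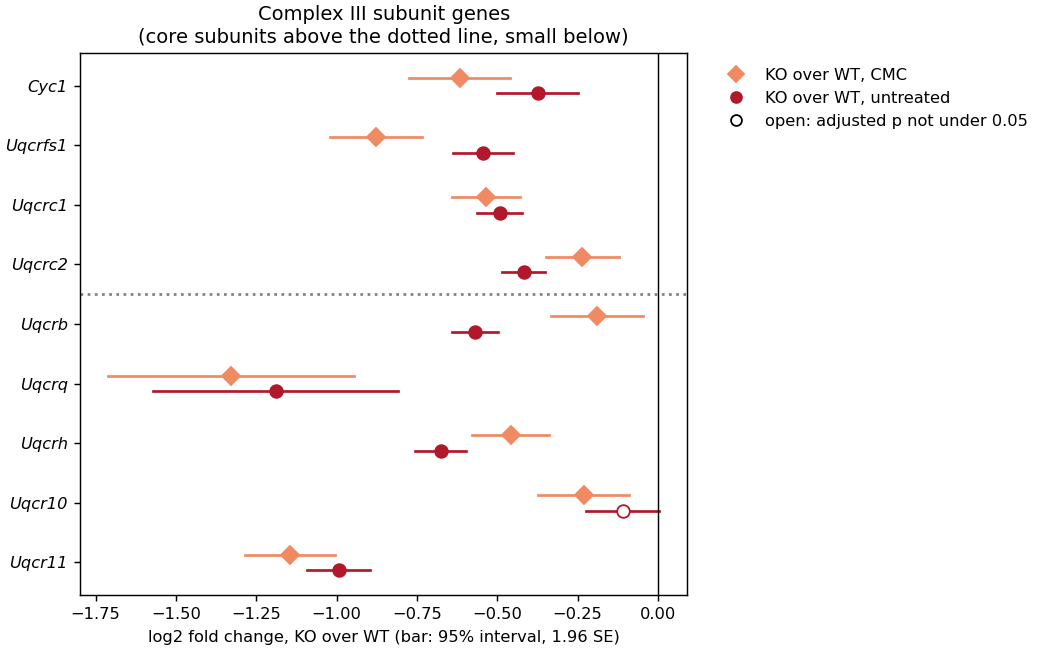
Log2 fold change of each complex III subunit gene, KO over WT, in CMC libraries (diamonds) and in untreated libraries (circles), with 95% intervals of 1.96 SE; open symbols have an adjusted p of at least 0.05. In both kinds of library Uqcr11 and Uqcrq lie near -1 or below, and in the CMC libraries Uqcrb, Uqcrh and Uqcrc2 lie nearer to 0 and the other 6 farther from it.

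The authors' deposited table of untreated KO over WT gives, in the same order of roles, log2 fold changes of -0.36 for Cyc1, -0.53 for Uqcrfs1, -0.48 for Uqcrc1, -0.40 for Uqcrc2, -0.55 for Uqcrb, -0.66 for Uqcrh, -1.18 for Uqcrq, -0.98 for Uqcr11 and -0.09 for Uqcr10, the last with an adjusted p of 0.443. In the authors' deposited table of gene ontology categories, 8 of the 10 genes of the complex III category were called, with a goseq p-value of 5.9e-06. The authors' share over all genes was not read, and by edgeR 57.9% of all features were called in either direction. The genes of that category were not matched to the members, and its p-value comes from the same untreated libraries.

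Cytochrome b, the mitochondrially encoded subunit, went the other way at the RNA level. Per 1000000 nuclear counts, mt-Cytb had 85482, 86323 and 85242 counts in untreated KO hearts, against 44630, 45156 and 44387 counts in untreated WT hearts, a log2 fold change of 0.94 ± 0.02 (SE, adjusted p = 1.58e-119, edgeR). In CMC libraries mt-Cytb had 131380, 132560 and 123090 in KO, against 41767, 37309 and 56399 in WT, a log2 fold change of 1.51 ± 0.09 (SE, adjusted p = 3.84e-15, edgeR). WT CMC replicate 3 was the highest of its group, yet below every KO CMC library.

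In the CMC libraries all 9 members were called lower in KO than in WT, where 26.8% of 12214 features tested were called lower, 27.3% higher and 54.1% in either direction. The median log2 fold change of the members was -0.53, against -0.01 over all nuclear features tested, and the medians were -0.58 for the 4 core genes and -0.46 for the 5 small genes. Without WT CMC replicate 3 the count was 8 of 9, since Uqcrb was no longer called. No library is shared between the CMC and the untreated comparison, but the labels do not say whether the same hearts gave RNA to both.

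Among the carriers of electrons, Uqcrfs1 had 190, 205 and 177 nuclear CPM in KO CMC libraries, against 362, 377 and 309 in WT CMC libraries. This log2 fold change of -0.88 ± 0.07 (SE, adjusted p = 1.04e-11, edgeR; -0.95 without WT CMC replicate 3) was the largest decrease among the core genes. Cyc1 had 106, 112 and 99.7 nuclear CPM in KO CMC libraries, against 170, 169 and 146 in WT CMC libraries, a log2 fold change of -0.62 ± 0.08 (SE, adjusted p = 9.83e-08, edgeR; -0.68 without replicate 3). Neither gene's groups overlapped, and in both WT CMC replicate 3 was the lowest of the WT CMC libraries.

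Uqcrc1 had 599, 614 and 610 nuclear CPM in KO CMC libraries, against 924, 858 and 849 in WT CMC libraries, a log2 fold change of -0.53 ± 0.05 (SE, adjusted p = 7.42e-10, edgeR; -0.55 without WT CMC replicate 3). Uqcrc2 had 687, 685 and 645 nuclear CPM in KO CMC libraries, against 770, 739 and 858 in WT CMC libraries, a log2 fold change of -0.24 ± 0.06 (SE, adjusted p = 0.000936, edgeR; -0.16 without replicate 3). Per length, Uqcrc2 over Uqcrc1 was 1.79 ± 0.0733 in KO CMC libraries and 1.46 ± 0.155 in WT CMC libraries (SD, n = 3 each), a log2 difference of 0.30, and of 0.38 without WT CMC replicate 3.

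Uqcrb had 595, 588 and 545 nuclear CPM in KO CMC libraries, against 640, 561 and 764 in WT CMC libraries. The groups overlapped, and the log2 fold change of -0.19 ± 0.07 (SE, adjusted p = 0.0279, edgeR) was -0.06 with an adjusted p of 0.396 without WT CMC replicate 3. It was also no longer called in 4 of the other 5 fits that left out 1 library. With the replicate number as a block its adjusted p was 0.0522. A decrease of Uqcrb after CMC therefore rests on single libraries, while in untreated hearts it held in all 6 such fits.

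Uqcrh had 372, 372 and 374 nuclear CPM in KO CMC libraries, against 496, 477 and 558 in WT CMC libraries, a log2 fold change of -0.46 ± 0.06 (SE, adjusted p = 1.78e-07, edgeR; -0.38 without WT CMC replicate 3). Uqcr11 had 138, 150 and 149 nuclear CPM in KO CMC libraries, against 324, 346 and 293 in WT CMC libraries, a log2 fold change of -1.14 ± 0.07 (SE, adjusted p = 1.02e-14, edgeR; -1.20 without replicate 3). Uqcr11, at 0.452 times its WT level, was again far from Uqcr10. Uqcr10 had 161, 157 and 159 nuclear CPM in KO CMC libraries, against 188, 199 and 170 in WT CMC libraries, a log2 fold change of -0.23 ± 0.07 (SE, adjusted p = 0.00758, edgeR; -0.28 without WT CMC replicate 3). Its groups did not overlap, but the call was lost without WT CMC replicate 2 (adjusted p = 0.0689) and with nuclear library size alone as the scale (adjusted p = 0.0775). Uqcrq had 29, 24 and 19 counts in KO CMC libraries against 59, 70 and 57 counts in WT CMC libraries, a log2 fold change of -1.33 ± 0.20 (SE, adjusted p = 9.58e-07, edgeR; -1.35 without replicate 3).

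The balance of small against core subunits was measured within each library as the summed TPM of the 5 small genes over that of the 4 core genes, a ratio that does not depend on scaling between libraries. In untreated hearts it was 2.13, 2.08 and 2.19 in KO libraries, against 2.37, 2.46 and 2.28 in WT libraries, a mean difference of -0.15 on the log2 scale with no overlap. After CMC it was 2.30, 2.24 and 2.33 in KO libraries, against 2.11, 2.10 and 2.34 in WT libraries, a mean difference of 0.07 with overlap, in which WT CMC replicate 3 was the highest of all 6. Without that library the difference was 0.12. Uqcrb has the highest level among the small genes and so weighs most in the sum. When each gene was given equal weight, as the mean log2 level of the small genes minus that of the core genes, KO was lower in both kinds of library with no overlap. This balance was -0.14, -0.16 and -0.13 in untreated KO libraries, against 0.10, 0.15 and 0.07 in untreated WT libraries, a difference of -0.25. After CMC it was -0.04, -0.11 and -0.08 in KO libraries, against -0.03, 0.02 and 0.10 in WT libraries, a difference of -0.11, and of -0.07 without WT CMC replicate 3. After CMC the sum and the equal-weight balance thus differed in direction. Equal weight gives the thinly counted Uqcrq as much say as any other small gene. Its log2 fold changes, -1.19 in untreated and -1.33 in CMC libraries, were the lowest of the members. Of the other small genes after CMC, Uqcrb at -0.19, Uqcr10 at -0.23 and Uqcrh at -0.46 fell less than the core median of -0.58. Only Uqcr11, at -1.14, fell more. The equal-weight balance was not computed without Uqcrq, so its direction after CMC is not shown to hold without that gene.

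The ratio of Uqcr10 to Uqcr11 showed the divergence of these 2 small subunits within each library. It was 1.05, 0.984 and 1.01 in untreated KO libraries, against 0.536, 0.537 and 0.580 in untreated WT libraries. After CMC it was 1.28, 1.14 and 1.17 in KO libraries, against 0.639, 0.632 and 0.636 in WT libraries. The KO and WT ranges were far apart in both, with mean log2 differences of 0.88 in untreated and 0.91 in CMC libraries, and of 0.91 without WT CMC replicate 3. Uqcrb over Uqcrfs1 did not differ in this way in untreated hearts, at 3.83, 3.46 and 3.68 in KO libraries against 3.76, 3.90 and 3.49 in WT libraries. After CMC that ratio was 4.87, 4.47 and 4.78 in KO libraries against 2.75, 2.31 and 3.85 in WT libraries, and WT CMC replicate 3 stood between its group and the KO libraries. The mean log2 difference was 0.69, and 0.90 without WT CMC replicate 3.

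**Figure D3:**
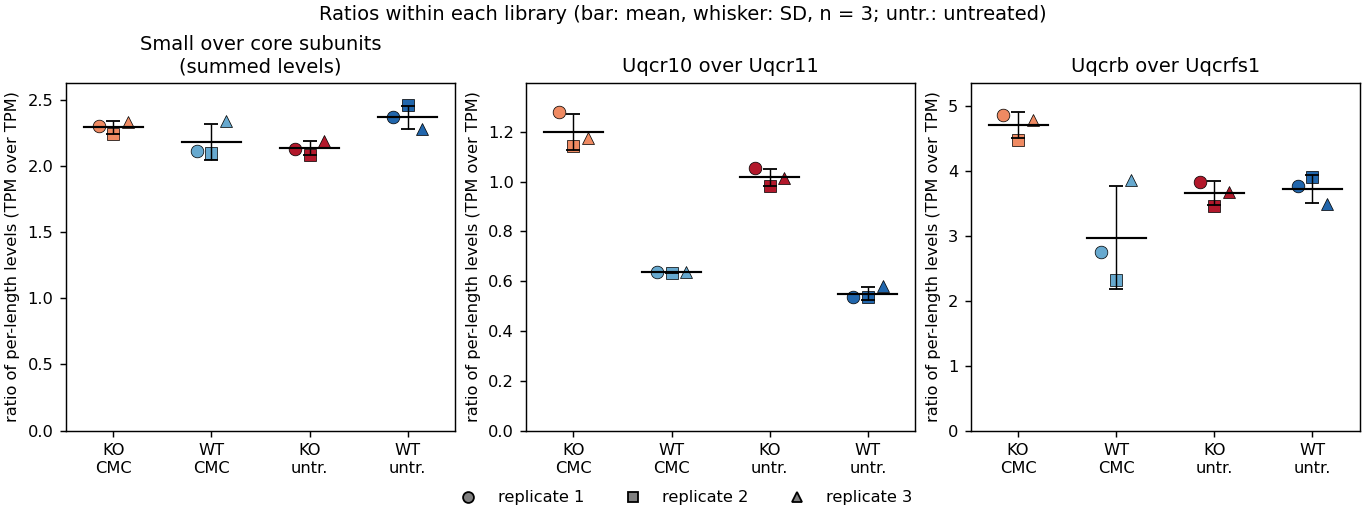
Ratios of per-length levels within each library (vertical axes, from 0, TPM over TPM): all small over all core subunits, Uqcr10 over Uqcr11, and Uqcrb over Uqcrfs1; symbols are replicates, bars the mean and whiskers the SD of 3 libraries. Uqcr10 over Uqcr11 lies between 0.984 and 1.28 in the 6 KO libraries and between 0.536 and 0.639 in the 6 WT libraries, while the small-over-core sums are closer together.

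Most members were not called between CMC and untreated libraries. In KO hearts 22.2% of the members were lower and 11.1% higher, and in WT hearts 22.2% were lower and none was higher. Each called share is made of 1 or 2 genes, so the shares of all features are set beside them as description only. In KO hearts 2 of 9 were lower and 1 was higher in CMC than in untreated libraries, where 12.2% of 11983 features were called in either direction, 5.37% lower and 6.82% higher. Uqcrfs1, at 190, 205 and 177 nuclear CPM in KO CMC libraries against 226, 243 and 225 in untreated KO libraries, fell by 0.28 on the log2 scale (SE 0.06, adjusted p = 8.36e-05, edgeR). Uqcr11, at 138, 150 and 149 nuclear CPM in KO CMC libraries against 165, 174 and 169 in untreated KO libraries, fell by 0.23 (SE 0.06, adjusted p = 0.00502, edgeR). Uqcrh, at 372, 372 and 374 nuclear CPM in KO CMC libraries against 321, 338 and 346 in untreated KO libraries, rose by 0.15 (SE 0.05, adjusted p = 0.0201, edgeR). The groups overlapped for none of these 3 genes. The other 6 lay between -0.10 for Cyc1 and 0.11 for Uqcrc1 and were not called. The call of Uqcrfs1 held whichever library was left out, that of Uqcr11 was lost without KO CMC replicate 1 (adjusted p = 0.0532), and that of Uqcrh was lost without KO CMC replicate 2 (adjusted p = 0.0514) and without untreated KO replicate 1 (adjusted p = 0.165).

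In WT hearts 2 of 9 members were lower in CMC than in untreated libraries and none was higher, where 2.12% of 12113 features were called, 1.23% lower and 0.892% higher. Uqcrb, at 640, 561 and 764 nuclear CPM in WT CMC libraries against 787, 842 and 793 in untreated WT libraries, fell by 0.30 on the log2 scale (SE 0.07, adjusted p = 0.0119, edgeR). Uqcrc2, at 770, 739 and 858 nuclear CPM in WT CMC libraries against 932, 893 and 944 in untreated WT libraries, fell by 0.23 (SE 0.05, adjusted p = 0.0177, edgeR). Without WT CMC replicate 3 the changes were -0.43 for Uqcrb (adjusted p = 8.1e-10) and -0.29 for Uqcrc2 (adjusted p = 8.21e-07), and Uqcrc1 was then called higher at 0.17 (adjusted p = 0.00406). The 7 members not called with all libraries lay between -0.08 for Uqcr11 and 0.14 for Uqcrc1, and the 6 not called without that replicate between -0.14 for Uqcrh and 0.21 for Cyc1. No member was called without WT CMC replicate 1 or 2, or without untreated WT replicate 1 or 2, and only Uqcrb without untreated WT replicate 3. Uqcrb and Uqcrc2 have the lowest GC content of the 9 longest coding transcripts, 42.2% and 44.4%, against 48.6% to 58.9% for the rest. Over the 9 genes, the log2 change correlated with GC content at a Pearson r of -0.177 and a Spearman rho of -0.167 in KO hearts, and at 0.74 and 0.633 in WT hearts. These describe 9 genes read in the same libraries, and the part of base composition in the changes was not tested.

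**Figure D4:**
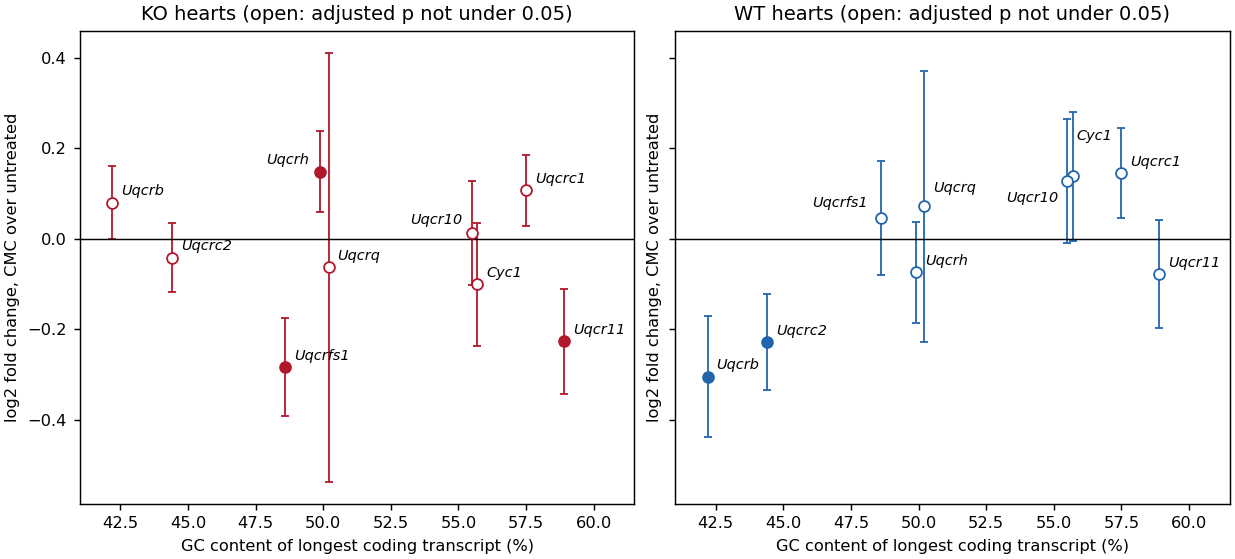
Log2 fold change of each member, CMC over untreated (vertical axis, bars 95% intervals), against the GC content of its longest coding transcript in percent, in KO hearts (left) and WT hearts (right); open symbols have an adjusted p of at least 0.05. In KO hearts the called members Uqcrfs1, Uqcrh and Uqcr11 lie between 48.6% and 58.9% GC, and in WT hearts the called members Uqcrb and Uqcrc2 have the lowest GC content, at 42.2% and 44.4%.

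The KO effect was then compared between CMC and untreated libraries as a contrast over all 12. It differed for 2 of 9 members, where 1.49% of 12802 features were called, 0.383% lower and 1.11% higher. The KO effect on Uqcrb was less negative after CMC, by 0.39 on the log2 scale (95% interval 0.23 to 0.55, adjusted p = 0.00361, edgeR), and it was called whichever of the 12 libraries was left out. The KO effect on Uqcrfs1 was more negative after CMC, with a difference of -0.33 (95% interval -0.49 to -0.16, adjusted p = 0.0333, edgeR), but this call held in 3 and was lost in 9 of the 12 fits that left out 1 library. Without WT CMC replicate 3 the differences were 0.52 for Uqcrb and -0.41 for Uqcrfs1, and Uqcrc2 at 0.26 (adjusted p = 0.00076) and Uqcrh at 0.30 (adjusted p = 0.000549) were called as well. With all libraries Uqcrc2 differed by 0.19 (95% interval 0.06 to 0.32, adjusted p = 0.16) and Uqcrh by 0.23 (95% interval 0.08 to 0.37, adjusted p = 0.103). The other differences not called ran from -0.23 for Cyc1 (adjusted p = 0.302) to -0.03 for Uqcrc1, and for Uqcr11 the interval was -0.31 to 0.02 and for Uqcr10 -0.29 to 0.06. Without WT CMC replicate 3 these were -0.30 for Cyc1 (adjusted p = 0.0535), -0.20 for Uqcr11, -0.17 for Uqcr10, -0.16 for Uqcrq and -0.05 for Uqcrc1, still not called. For mt-Cytb the difference was 0.58 (adjusted p = 0.000165, edgeR).

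Of 8 genes for factors that help build complex III, 2 were lower, 1 was higher and 5 were not called in untreated KO hearts, with a median log2 fold change of -0.01. These are 25% lower and 12.5% higher, beside 28.7% and 29.2% of all features. The counts were the same in CMC libraries, beside 26.8% and 27.3% of all features, with a median of -0.03. Uqcc1, which with Uqcc2 binds newly made cytochrome b, was lower, at 116 ± 13.8 nuclear CPM in untreated KO hearts and 146 ± 3.87 in untreated WT hearts (SD, n = 3 each; log2 fold change -0.33, adjusted p = 2.44e-06, edgeR), and at -0.51 in CMC libraries (adjusted p = 2.14e-06). Ttc19, which helps clear fragments of the Rieske protein, was lower at -0.23 (adjusted p = 0.0121) and at -0.21 after CMC (adjusted p = 0.0424). Uqcc3, which stabilises an early cytochrome b intermediate, was higher, at 27.0 ± 6.38 nuclear CPM in untreated KO hearts and 20.2 ± 2.26 in untreated WT hearts (SD, n = 3 each; log2 fold change 0.42, adjusted p = 0.00917), and at 0.42 after CMC (adjusted p = 0.0135). The calls of Ttc19 and Uqcc3 are the less certain ones: each was lost in untreated libraries when either of 2 single libraries was left out, and after CMC Ttc19 was lost when any 1 library was left out and Uqcc3 without KO CMC replicate 1. Without WT CMC replicate 3 the CMC count was 1 lower (Uqcc1, -0.52) and 1 higher (Uqcc3, 0.46). Bcs1l, the ATPase that inserts the Rieske protein, had KO over WT log2 fold changes of 0.00 in CMC and -0.07 in untreated libraries, and Lyrm7, which holds the Rieske protein in the matrix, 0.04 in CMC and 0.07 in untreated libraries, none of them called. In the same order Uqcc2 was at -0.06 and 0.06, 1190007I07Rik, the mouse gene of the human assembly factor called BRAWNIN, at -0.20 and -0.22, and Smim4, with 7 to 17 counts per library, at 0.08 and 0.56, also not called.

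Of 13 partner genes, which exchange electrons with complex III, attach its haem, are tied to its supercomplexes or encode the processing peptidase related to its core proteins, 12 could be tested for KO against WT, and Chdh had too few counts. In untreated KO hearts 5 were lower, 1 was higher and 6 were not called, and after CMC 4 were lower, 1 was higher and 7 were not called, with the same counts without WT CMC replicate 3. The shares lower were 41.7% in untreated and 33.3% in CMC libraries, beside 28.7% and 26.8% of all features, and the shares higher 8.33% in both, beside 29.2% and 27.3%. Cycs, cytochrome c itself, was lower in untreated KO hearts at -0.29 ± 0.04 (SE, adjusted p = 5.32e-12, edgeR), with 465 ± 14.1 nuclear CPM in KO and 571 ± 36.5 in WT (SD, n = 3 each). After CMC its log2 fold change was -0.02 (adjusted p = 0.791), with 395 ± 28.9 nuclear CPM in KO and 401 ± 42.4 in WT. Hccs, which attaches haem to cytochromes c and c1, was lower in untreated hearts at -0.27 (adjusted p = 0.000981) and not called after CMC at -0.19 (adjusted p = 0.0686).

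Enzymes that deliver electrons to ubiquinone, the substrate of complex III, did not move as one. Etfdh, which passes on electrons from fatty acid oxidation, had 409 ± 2.19 nuclear CPM in untreated KO hearts and 830 ± 23.1 in untreated WT hearts (SD, n = 3 each), a log2 fold change of -1.02 ± 0.04 (SE, adjusted p = 1.76e-76, edgeR), and -1.07 ± 0.06 after CMC. Sqor, the sulfide oxidoreductase, was lower at -0.76 in untreated hearts (adjusted p = 1.54e-08) and at -0.77 after CMC (adjusted p = 3.62e-05). Gpd2 at -0.22, Dhodh at -0.28 and Prodh at -0.10 were not called after CMC, nor in untreated hearts at 0.02, -0.24 and -0.09. Of the factors tied to supercomplexes, Higd2a was lower after CMC at -0.67 and in untreated hearts at -0.48, Higd1a was called after CMC at -0.33 (adjusted p = 0.00612, and 0.0668 without KO CMC replicate 2) and not in untreated hearts at -0.01, and Cox7a2l was not called, at -0.05 after CMC and -0.09 in untreated hearts. The difference between those values of Higd1a was not called in the contrast over all 12 libraries, in which none of the partners was. Pmpcb, the catalytic subunit of the processing peptidase related to the core proteins, was higher after CMC at 0.24 (adjusted p = 0.00225) and in untreated hearts at 0.18 (adjusted p = 0.000811), whereas its partner Pmpca was not called, at -0.15 after CMC and -0.08 in untreated hearts.

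**Figure D5:**
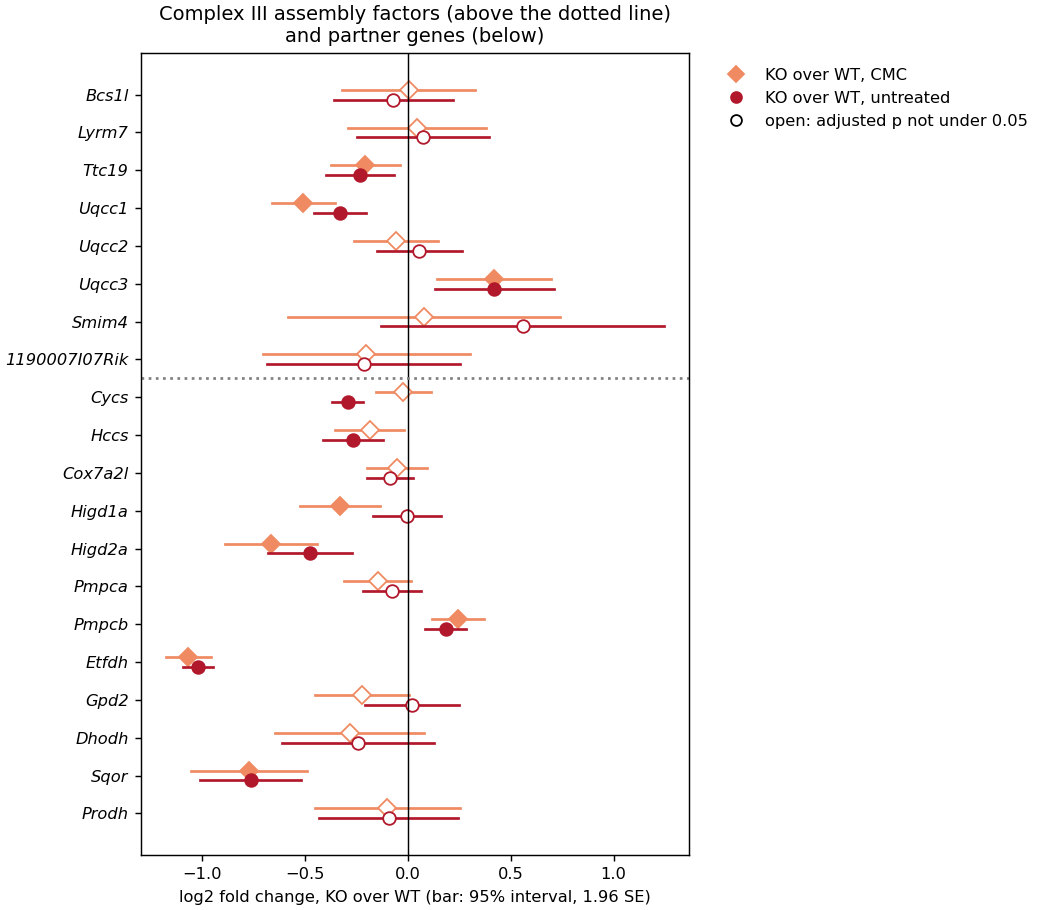
Log2 fold change, KO over WT, of complex III assembly factors (above the dotted line) and partner genes (below) in CMC libraries (diamonds) and untreated libraries (circles), with 95% intervals of 1.96 SE; open symbols have an adjusted p of at least 0.05. Etfdh lies at -1.07 in CMC and -1.02 in untreated libraries, Uqcc3 and Pmpcb lie above 0 in both, and most assembly factors have intervals that include 0.

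Most nuclear genes of the other complexes of oxidative phosphorylation were lower as well. In untreated KO hearts 33 of 36 nuclear complex I genes were lower with a median log2 fold change of -0.51, 4 of 4 complex II genes with a median of -0.55, 13 of 15 complex V genes with a median of -0.41 and 9 of 13 complex IV genes with a median of -0.17, while 2 complex IV genes and 1 complex V gene were higher. After CMC the medians were -0.59, -0.69, -0.57 and -0.39 in the same order. No difference between complexes was tested.

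The nuclear protein-coding genes whose profile over the 12 libraries lay closest to the median profile of the 9 members, by root mean square distance of centred log2 nuclear CPM among 7211 genes, were Dlat at 0.05, Hdlbp at 0.05, Hadha at 0.06, Sptb at 0.06 and Tcf20 at 0.06. Of the members, Uqcrc1 was the closest to that median at 0.07, followed by Cyc1 and Uqcrh at 0.10 each. Uqcrq at 0.39 and Uqcr11 at 0.29 were the farthest.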

How the data were processed

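The authors deposited raw counts of reads per gene in 2 tables, for untreated and CMC libraries, with exon lengths. Tools named in the submitters' processing notes, against mm10, are DESeq2 (1.16.1), featureCounts (1.5.1), HISAT2 (2.0.5) and SAMtools (1.5), with no strand setting. The authors also deposited log2 fold changes with p-values, and gene ontology p-values with gene numbers. Symbols came from GENCODE M21 by Ensembl ID, and 51632 of 51911 features got one.

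Counts passing filterByExpr went into quasi-likelihood tests (edgeR 4.0.16, R 4.3.3), with nuclear library sizes, TMM factors over nuclear genes and Benjamini-Hochberg adjustment over all features, called at 0.05. There were 5 comparisons: KO against WT within CMC and within untreated libraries, CMC against untreated within KO and within WT, and the difference of KO effects over 12 libraries. Intervals are 1.96 SE. Named genes were all members, the assembly and partner genes, and the 5 of nearest profile with a mean of at least 50 counts. Near-identical copies were sought with blastn 2.17.0 among GENCODE transcripts, at 95% identity over at least 100 bases. The fits of KO against WT were checked on simulated counts, with a fixed spread between replicates lower than that of the CMC libraries. The fits of CMC against untreated and of the difference of KO effects were not simulated. The members and lists were chosen with earlier results of these data known. Alternatives were other scalings, no filter, a replicate block, 1 fit of 12 libraries, each library left out, and DESeq2 1.42.0.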

Additional observations from a re-analysis of the deposited data

Results flagged for a closer look

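The KO effect differed between CMC and untreated libraries for 2 members by the contrast over all 12 libraries. For Uqcrb the difference of log2 fold changes was 0.39 (adjusted p = 0.00361, edgeR), from -0.19 in CMC and -0.57 in untreated libraries. For Uqcrfs1 the difference was -0.33 (adjusted p = 0.0333, edgeR), from -0.88 in CMC and -0.54 in untreated libraries. The call of Uqcrfs1 was lost in 9 of the 12 fits that left out 1 library, whereas that of Uqcrb held in all 12.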

How the results depend on the processing

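In untreated hearts 8 of 9 members were called lower in KO under every alternative run, and only Uqcr10 turned, to 0.0095 with nuclear library size without TMM, which moved the median of all nuclear features to 0.12. In CMC libraries all 9 kept a negative sign, and 7 to 9 were called. The count for CMC against untreated in KO was 1 with DESeq2, against 3. In WT it was 1 with DESeq2, against 2, and 0 to 3 with single libraries left out. The difference of KO effects was called for 1 member with DESeq2, against 2, and for 1 to 4 with single libraries left out. The small over core difference by mean of log2 levels was -0.11 in CMC libraries, against 0.07 by sums, and -0.25 in untreated libraries, against -0.15; the cause was not tested. Other reversals concerned values not called with all libraries. For CMC against untreated in KO, Uqcr10 was at -0.0028 without TMM and at -0.0003 to 0.0259 with single libraries left out, and Uqcrq at -0.1686 to 0.0442. In WT, Uqcrfs1 was at -0.012 to 0.1314, and for the difference of KO effects Uqcrc1 was at -0.0611 to 0.0083. Over all features, DESeq2 called 518 for CMC against untreated in KO, against 1460, 82 in WT, against 257, and 103 for the difference, against 191. With all 12 libraries in 1 fit, 436 were called in WT. With single libraries left out the counts were 65 to 757 in WT and 90 to 633 for the difference, the highest of each without WT CMC replicate 3. Depth limits Uqcrq most, at 19 to 70 counts per library.

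Deviations of same-numbered libraries correlated at -0.11 to 0.07, so replicate numbers showed no clear pairing. Outside WT CMC, replicates differed little beyond counting noise, with a chi-square per degree of freedom of 1.12 to 1.36. Such small deviations would correlate weakly even for shared RNA, so these values cannot decide whether CMC and untreated libraries are paired. With the replicate block 8 members were called in untreated and 8 in CMC libraries, 3 and 2 for CMC in KO and WT, and 2 for the difference. Uqcrb in CMC libraries was the one member call lost (adjusted p = 0.0522).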
